A study of Arabidopsis thaliana with 6 samples.

Results

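Alpha-expansins are the subject here, the largest branch of the expansin superfamily of plant cell wall proteins. The members are the 8 listed genes (EXPA4, EXPA7, EXPA8, EXPA9, EXPA15, EXPA16, EXPA18 and EXPA20) that the platform annotation pairs alone with a probe set. They are 8 of the 26 alpha-expansin genes in the RefSeq gene table of Arabidopsis thaliana and 8 of the 13356 genes that the annotation pairs with a probe set of their own. RNA was measured on 6 Affymetrix ATH1 arrays, on which sets of short oligonucleotides (probe sets) each read 1 transcript or a few related ones. By the labels, a transgene overexpresses ASL9 in the ASL9-ox line, from which 3 arrays were made. ASL9 is a transcription factor gene of the plant-specific LBD family. Its level was not seen here, because no probe set is paired with it by name. The other 3 arrays were made from wildtype plants of the Col-0 accession. All plants were seedlings grown upright for 2 weeks on agar plates, and the labels name no treatment. The tissue label names aerial parts. Neither the promoter of the transgene nor the number of transgenic lines was given in the labels, and the genetic background of the ASL9-ox plants was not stated there.

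Expansins are secreted and loosen the contacts between cellulose and other wall polymers without cutting them. They act best in an acid wall, so that proton pumping into the wall and expansin supply together allow a cell to extend under turgor. Individual family members are tied to particular organs and cell types, among them growing hypocotyls and leaves, germinating seeds and root hairs.

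Of the 8 alpha-expansins, 1 was higher and 2 were lower in ASL9-ox seedlings than in wildtype ones, going by the labels. The labels could not be checked here, and all directions rest on them. EXPA8 rose and EXPA4 and EXPA20 fell, and in each of these 3 the groups did not overlap, as in 54.0% of all tested probe sets. EXPA9, EXPA15, EXPA16 and EXPA18 were tested and did not pass. EXPA7 was too dim to be tested. "Rose" and "fell" are used for probe sets with an adjusted p below 0.05 in limma's moderated test (Benjamini-Hochberg over the 17059 probe sets tested), and fold changes are of signal + 16, which understates the change of dim probe sets. The differences were widespread across the array, since 41.6% of all tested probe sets passed, 24.6% higher and 17.0% lower. The 3 of 7 tested members that passed therefore formed a share near that background. The median log2 fold change of the 7 tested members was -0.06, against 0.08 over all tested probe sets. Log2 fold changes of the tested members ran from -2.42 to 3.13. Those of EXPA4, EXPA8 and EXPA20 were 0.9 or more in size, as were those of 9.17% of all tested probe sets. That bound lies just under the size of EXPA20, at -0.93, so the share is a description and no measure of an excess. The median absolute log2 fold change was 0.23 for the tested members and 0.24 over all tested probe sets.

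**Figure D1:**
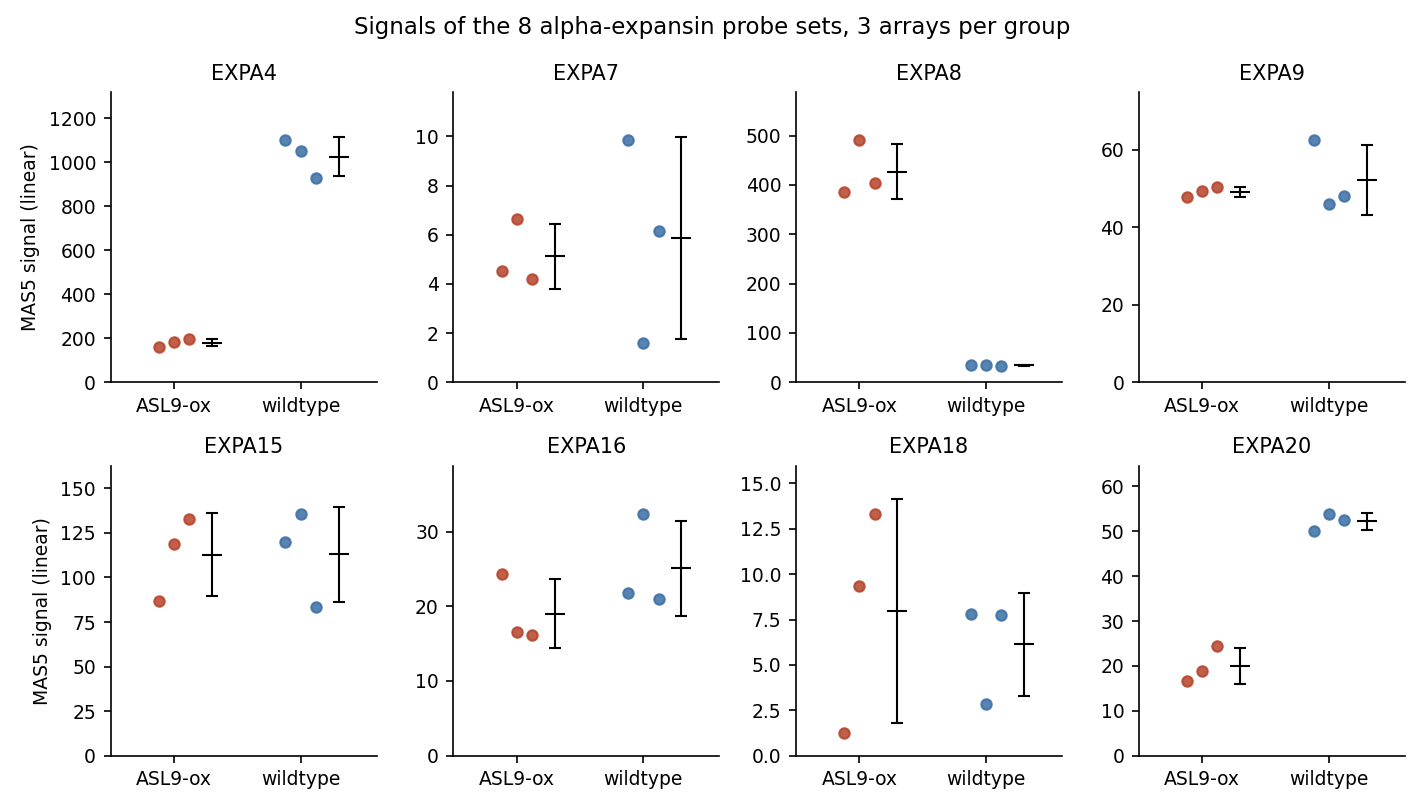
MAS5 signal on a linear scale that starts at 0, with a panel and a scale of its own for each alpha-expansin. Points are single arrays, in red for ASL9-ox and in blue for wildtype, and the bar beside them is the mean ± SD of 3 arrays. EXPA4, EXPA8 and EXPA20 have groups that do not overlap, and the groups overlap in the other 5.

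EXPA8 (AT2G40610) is known as a gene bound and induced by HBI1, a bHLH factor that promotes cell elongation. It read 386, 490.4 and 404 in the ASL9-ox arrays, against 34.1, 34.9 and 33.7 in the wildtype arrays. The lowest ASL9-ox array lay far above the highest wildtype array, and the wildtype arrays were nearly identical, with a coefficient of variation of 1.78% against 13.1% in ASL9-ox. The mean signal was 427 ± 55.8 in ASL9-ox and 34.3 ± 0.61 in wildtype (SD, n = 3 each), a ratio of 12.5. On the log2 scale of signal + 16 it rose by 3.13 ± 0.10 (SE, limma adjusted p = 5.36e-08), with a 95% interval of 7.53-fold to 10.2-fold. Among all 17059 tested probe sets only 2 rose by more on this scale, EXPA8 being number 3.

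EXPA4 (AT2G39700) read 162, 181 and 195 in the ASL9-ox arrays, against 1100.5, 1050.3 and 928 in the wildtype arrays. Every ASL9-ox array was lower than every wildtype array, and the signals of both groups were far above the dim end of the arrays. The means were 179 ± 16.5 in ASL9-ox and 1026 ± 88.8 in wildtype (SD, n = 3 each), a wildtype signal 5.73 times as high. EXPA4 fell by 2.42 on the log2 scale, with an SE of 0.09 and a limma adjusted p of 1.72e-07. The 95% interval was 4.63-fold to 6.16-fold lower.

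EXPA20 (AT4G38210) read 16.7, 18.9 and 24.5 in the ASL9-ox arrays, against 50.2, 53.9 and 52.6 in the wildtype arrays. The groups did not overlap, although the ASL9-ox signals were near the added 16. The means were 20.0 ± 4.01 in ASL9-ox and 52.2 ± 1.90 in wildtype (SD, n = 3 each), a wildtype signal 2.61 times as high. The log2 fold change was -0.93 ± 0.10 (SE, limma adjusted p = 0.000123). This size depended on the number added, since it was -1.36 with a pseudocount of 1 and -0.47 with one of 64, while the call held in both.

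Ratios of 2 probe sets within an array do not depend on how the array as a whole was scaled. The signal of EXPA8 divided by that of EXPA4 was 2.38, 2.71 and 2.07 in the ASL9-ox arrays, against 0.031, 0.0332 and 0.0364 in the wildtype arrays. The groups were far apart, with a shift of 71-fold on the log2 mean. The signal of EXPA4 divided by that of EXPA20 was 9.72, 9.55 and 7.96 in the ASL9-ox arrays, against 21.9, 19.5 and 17.7 in the wildtype arrays, a shift of 2.17-fold. No test is given for either ratio. The first had to separate because EXPA8 rose and EXPA4 fell with no overlap. The second, whose genes both fell, had to separate too. With the signals given above, no pairing of arrays within the groups would make its ratios overlap.

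**Figure D2:**
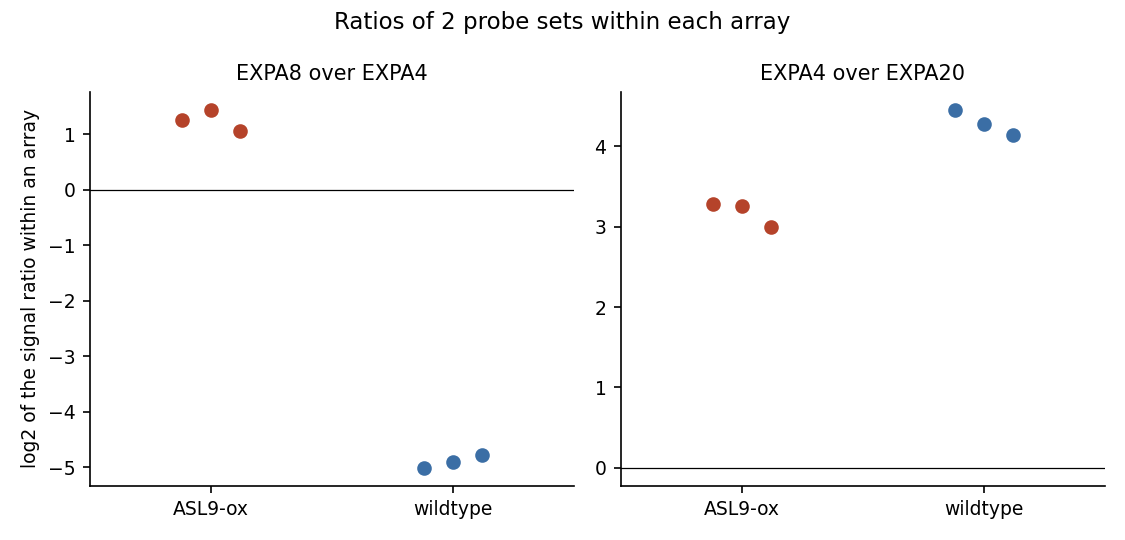
Log2 of the ratio of 2 signals within each array, EXPA8 over EXPA4 on the left and EXPA4 over EXPA20 on the right, with 1 point per array and ASL9-ox left of wildtype in each panel. The EXPA8 to EXPA4 ratio lies above 0 in the 3 ASL9-ox arrays and near -5 in the 3 wildtype arrays; the EXPA4 to EXPA20 ratio is lower in all 3 ASL9-ox arrays than in any wildtype array.

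EXPA7 (AT1G12560) and EXPA18 (AT1G62980) are expansins of root hair cells, where they act in hair outgrowth. EXPA7 read 4.5, 6.62 and 4.22 in the ASL9-ox arrays, against 9.84, 1.6 and 6.15 in the wildtype arrays. EXPA18 read 1.25, 9.34 and 13.3 in the ASL9-ox arrays, against 7.83, 2.86 and 7.74 in the wildtype arrays. Both were below 16 on all 6 arrays, and their groups overlapped. EXPA7 lay below the filter, which left out the dimmest 25% of probe sets by mean over the arrays, equal to a signal of about 6.6. Without that filter it had a log2 fold change of -0.03 (limma adjusted p = 0.893), and EXPA18, just above it, had 0.09 (limma adjusted p = 0.758). No detection calls were used here, so signals this low could not be told from background. Root hairs may not have been sampled at all, since the tissue label names aerial parts.

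EXPA9 (AT5G02260) read 47.8, 49.4 and 50.4 in the ASL9-ox arrays, against 62.5, 46.1 and 48.1 in the wildtype arrays. Only wildtype replicate 1 stood above the rest. The 95% interval of the ASL9-ox to wildtype ratio, on the scale of signal + 16, ran from 0.815 to 1.13, so changes as large as those of EXPA4, EXPA8 or EXPA20 lay outside it (limma adjusted p = 0.701).

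EXPA15 (AT2G03090) read 86.9, 119 and 133 in the ASL9-ox arrays, against 120, 136 and 83.3 in the wildtype arrays. The group means were both 113, with an SD of 23.5 in ASL9-ox and 26.9 in wildtype (n = 3 each). Arrays of the same group thus differed widely, and the interval of the ratio was correspondingly wide, 0.762 to 1.32 (limma adjusted p = 0.986).

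EXPA16 (AT3G55500) read 24.3, 16.6 and 16.2 in the ASL9-ox arrays, against 21.8, 32.4 and 21.0 in the wildtype arrays. The groups overlapped through ASL9-ox replicate 1. Its log2 fold change was -0.23 ± 0.14 (SE, limma adjusted p = 0.232), and the interval of the ratio was 0.685 to 1.07. Its highest value came from wildtype replicate 2, an array that stood apart: the summed signal of the 2 measured seed and embryo markers, OLEO3 (an oil body protein) and PAP85 (a storage protein), was 1310 on that array, while no other array exceeded 12.6. Without that array the log2 fold change of EXPA16 was -0.10 (limma adjusted p = 0.601). EXPA8, EXPA4 and EXPA20 kept their calls without it, at 3.14, -2.40 and -0.91. EXPA15 and EXPA20 also had their highest signal on that array, and EXPA15 was at 0.13 without it (limma adjusted p = 0.602). Whether what set that array apart also moved these values was not tested.

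The remaining alpha-expansins that the annotation names lie side by side in the gene table, EXPA21 to EXPA26, a run of 6 genes read by 4 probe sets, 2 of which are shared by 2 genes. Their signals ran from 0.5 to 3.87 in the ASL9-ox arrays and from 0.452 to 1.9 in the wildtype arrays, all below the filter. The other 12 alpha-expansins, EXPA1 to EXPA3, EXPA5, EXPA6, EXPA10 to EXPA14, EXPA17 and EXPA19, were not analysed here, because no probe set was paired with them by name.

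Outside the alpha branch, 8 expansin genes had a probe set of their own, and 7 of these were tested. EXLB1 and EXPB1 rose and EXLA1 and EXLA2 fell, while EXPB2, EXPB3 and EXPB5 did not pass. EXLA3 was under the filter. EXLB1, an expansin-like gene, read 225, 224 and 170 in the ASL9-ox arrays, against 93.1, 79.4 and 62.3 in the wildtype arrays (log2 fold change 1.24 ± 0.14 SE, limma adjusted p = 0.000136). EXLA1, of the expansin-like A branch, read 66, 52.2 and 31.6 in the ASL9-ox arrays, against 253, 380 and 318 in the wildtype arrays (log2 fold change -2.36 ± 0.20 SE, limma adjusted p = 2.15e-05). The groups of both genes were apart, as in 54.0% of all tested probe sets. EXPB1, a beta-expansin, had a mean of 30.6 in ASL9-ox and 15.2 in wildtype, and EXLA2 had 27.9 in ASL9-ox and 52.1 in wildtype (limma adjusted p = 0.0152 and 0.000848). The call of EXPB1 was lost without ASL9-ox replicate 3 (adjusted p = 0.0535), and EXPB3, at -0.49, passed as lower without wildtype replicate 3 (-0.71, adjusted p = 0.0160). It also passed when arrays were centred on hybridization control spots (-0.58, limma adjusted p = 0.00761). With 7 tested genes in each set, 4 calls here and 3 among the alpha-expansins were not far from the background of 41.6%. The median of these 7 genes was -0.14 on the log2 scale, against 0.08 over all probe sets.

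**Figure D3:**
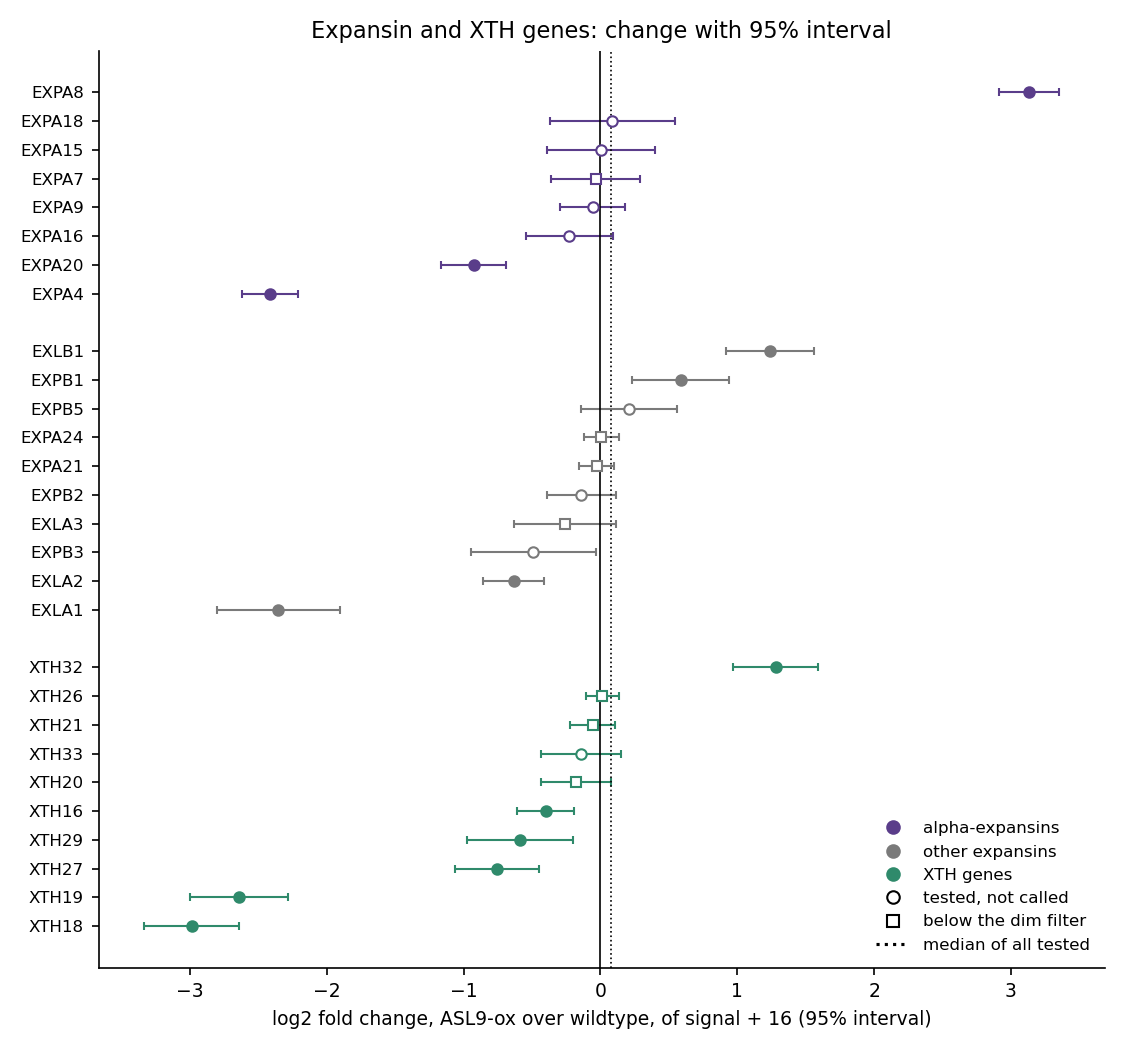
Log2 fold change, ASL9-ox over wildtype, of signal + 16 for each alpha-expansin, each other measured expansin and each measured XTH gene, with the 95% interval of limma's fit. Filled points passed, open circles were tested and did not pass, and open squares were under the dim filter and come from the fit without it. EXPA8 at 3.13 lies farthest to the right, and XTH18, XTH19, EXPA4 and EXLA1 lie farthest to the left.

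Xyloglucan endotransglucosylases (XTH) cut and rejoin the xyloglucan that coats cellulose, and so work on the same wall network as expansins. Of 10 measured XTH genes, 7 were tested, of which 5 fell, 1 rose and 1 did not pass, where 17.0% of all tested probe sets were lower and 24.6% higher. Their median log2 fold change was -0.59, against 0.08 over all tested probe sets. XTH18, XTH19 and XTH27 fell, with log2 fold changes of -2.99, -2.64 and -0.76. XTH32 had a mean signal of 257 ± 31.1 in ASL9-ox and 96.9 ± 21.7 in wildtype (SD, n = 3 each), and rose by 1.28. The call of XTH29, also among the 5, was lost without ASL9-ox replicate 2 or 3 and without wildtype replicate 1 or 3 (adjusted p = 0.0658 to 0.081). XTH29 was dim, with means of 3.20 in ASL9-ox and 13.1 in wildtype, both below 16. Whether the XTH and alpha-expansin lists differ from each other was not tested. The cellulose and pectin lists held 1 measured gene each, both with groups that were apart, as in 54.0% of all tested probe sets. COB, a membrane-anchored protein that orients cellulose deposition, rose by 0.22, and PME35, a pectin methylesterase, rose by 1.36 (limma adjusted p = 0.0268 and 5.99e-05). The call of COB was not stable: it was lost in 9 of 17 alternatives, among them 5 of the 6 that left out 1 array, all but the one without ASL9-ox replicate 1. The plasma membrane proton pumps, which acidify the wall, the SAUR genes that control them and the transcription factors of elongation, HBI1 among them, had no probe set paired by name (0 measured in each list), so they gave no values.

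The tissue was labelled as aerial parts, while the extraction text names seedlings only. The single measured root marker, PYK10, a beta-glucosidase of roots and hypocotyls, read 408, 429 and 453 in the ASL9-ox arrays, against 3168, 2847 and 3149 in the wildtype arrays. All 5 measured markers of photosynthetic tissue rose, with a summed signal of 17588 to 18501 in ASL9-ox and 11984 to 13399 in wildtype; over all tested probe sets 24.6% were higher. LHCB4.3, LHCB4.2, PSAN and LHCB4.1, of the light-harvesting antenna and photosystem I, rose by 1.04, 0.90, 0.66 and 0.46 on the log2 scale. The smallest of these rises, that of the Rubisco activase gene RCA at 0.18, lost its call in 11 of 17 alternatives, 5 of them with 1 array left out (each but wildtype replicate 1), and was at -0.09 with quantile normalization. Of the 3 measured genes on the guard cell list, FAMA and SPCH, regulators of the stomatal lineage rather than markers of mature guard cells, rose. The summed signal of all 3 was 97.6 to 127 in ASL9-ox and 64.1 to 83.5 in wildtype. Of the 2 measured trichome markers, GIS rose, with means of 61.9 in ASL9-ox and 14.1 in wildtype. The summed signal of both was 76.2 to 81.2 in ASL9-ox and 17.1 to 26.2 in wildtype. Both counts stand against the same 24.6%. Without ASL9-ox replicate 3 both trichome markers rose. MUTE, of the stomatal lineage, was below 16 on all arrays. None of the 24 listed root hair markers had a probe set paired by name (0 measured). MUTE and the trichome marker other than GIS had groups that overlapped. The other measured markers of this paragraph had groups that did not overlap, as in 54.0% of all tested probe sets. The part of these markers in the expansin differences was not tested. In whole tissue, fewer cells of a type and less RNA per cell cannot be told apart.

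The direction of every value rests on the labels. The annotation pairs 0 probe sets with ASL9, so its level gave no check of them. The unnamed probe set with the largest change of all read 11, 14.3 and 7.22 in the ASL9-ox arrays, against 5194.5, 5194.8 and 4914 in the wildtype arrays. Which gene it reads is not given in the sources used here. If it reads ASL9, the group labels may be exchanged, and every direction given here would then be reversed. An exchange of the group labels was not tested. Log2 signals correlated at 0.9796 to 0.9926 within groups and at 0.9281 to 0.9535 between them (Pearson's r across all probe sets of the table, as a description).

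Among 9454 other tested probe sets paired with 1 gene, those most like EXPA8 were AT3G16670, AT2G32160 and AT5G62280. Likeness was the root mean square difference of log2 values over the 6 arrays after each probe set was centred on its own mean, 0.18, 0.24 and 0.28 for these 3. AT3G16670 read 1138, 991 and 1002 in the ASL9-ox arrays, against 114, 93.9 and 93.9 in the wildtype arrays. The other two had wildtype signals below 16. Those most like EXPA4 were LTI30, which encodes a cold- and drought-induced dehydrin, AT4G36430 and AT5G61820, at 0.10, 0.16 and 0.16. LTI30 read 31.7, 30.9 and 37.6 in the ASL9-ox arrays, against 282, 244 and 259 in the wildtype arrays.

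**Figure D4:**
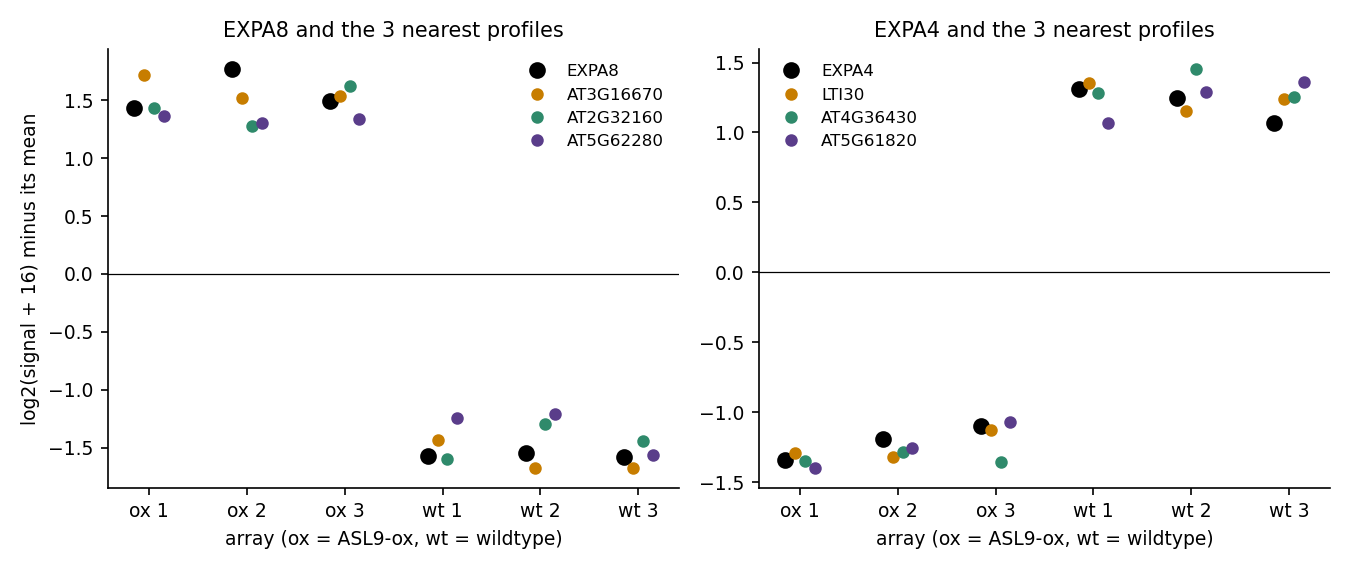
Log2(signal + 16) minus its mean over the 6 arrays, for EXPA8 (left panel) and EXPA4 (right panel) in black and the 3 genes with the nearest profiles in colour, with the ASL9-ox arrays on the left of each panel. All 4 probe sets of the left panel are above 0 in ASL9-ox and below it in wildtype, and all 4 of the right panel are the opposite. The genes in colour were chosen by this likeness, so the shared pattern was fixed by the choice.

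Of the 12 protein-coding genes that stand within 2 places of EXPA4, EXPA8 or EXPA20 in the gene table, 8 had a probe set and were tested, of which 3 rose and 2 fell. Over the whole array 41.6% passed, 24.6% higher and 17.0% lower, so 5 calls among 8 genes were not far from that share. These were examined after the expansin values were seen. Beside EXPA8, AT2G40600 and AT2G40620 rose by 0.45 and 0.26, and AT2G40630 had 0.31 and did not pass. The call of AT2G40620 was lost in 11 of 16 alternatives, among them every one that left out 1 array. Beside EXPA4, AT2G39690 rose by 0.58, AT2G39710 fell by 1.13, and AT2G39670 had 0.13 and did not pass. Beside EXPA20, AT4G38220 fell by 0.51, and AT4G38200 had -0.06 and did not pass. Each of these 8 changes was smaller in size than that of the expansin beside it.

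**Figure D5:**
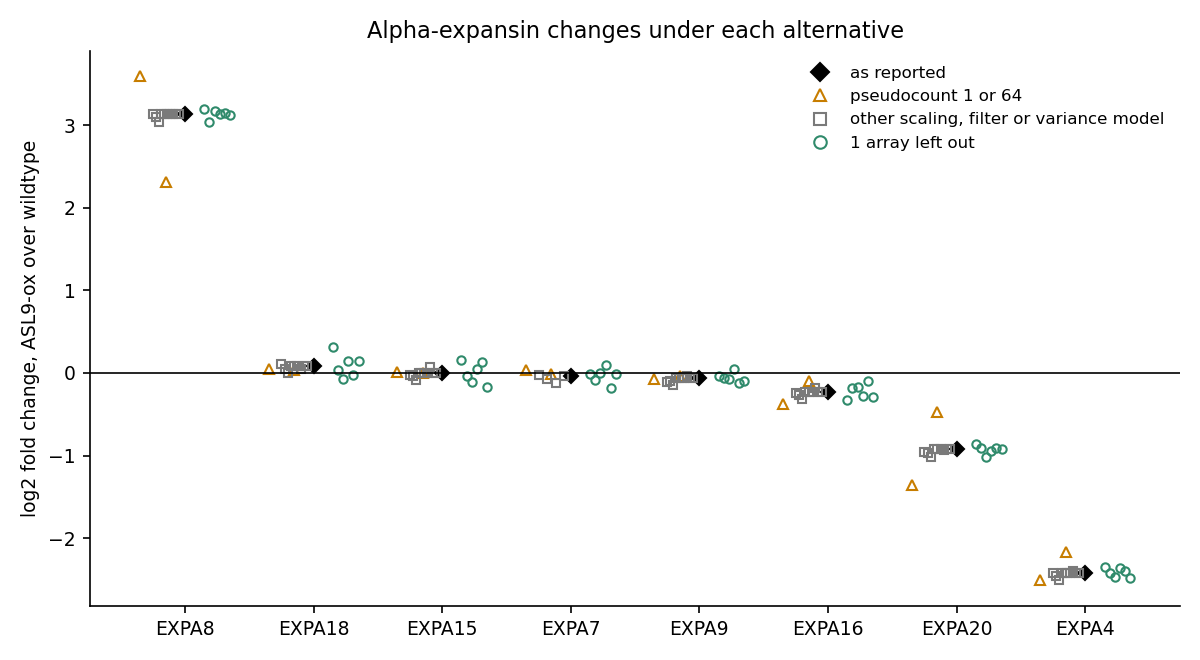
Log2 fold change, ASL9-ox over wildtype, of each alpha-expansin as reported (black) and under each alternative. Triangles are the 2 other pseudocounts, squares the other scalings, filters and variance models, and circles the fits with 1 array left out. EXPA8 spans 2.31 to 3.59, EXPA4 spans -2.51 to -2.16, EXPA20 spans -1.36 to -0.47, and the other 5 lie near 0.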

How the data were processed

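The members and gene lists were chosen with earlier results of these data known. The deposited intensity values were made by the authors with the Affymetrix programs MAS5 and GCOS, per the submitters' processing notes. No version of either is given. On each array the 22810 linear signals had a mean of 100.01 without the lowest and highest 2%, so a change shared by all transcripts cannot be seen. The annotation paired 13513 probe sets with 1 gene, 503 with several and 8794 with none.

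Signals were transformed to log2(signal + 16). Affymetrix controls (64 probe sets) and the dimmest 25% of the remainder were dropped. The other 17059 probe sets were fitted together with limma 3.58.1 (R 4.3.3), using lmFit and a two-sided eBayes test with an intensity trend, which was checked on simulated data. The simulation used independent normal noise and changed a far smaller share of probe sets than passed here. It therefore checked how the fit runs and gives no support to the calls in these data. The labels do not say whether the 3 samples of a group were grown separately. P-values therefore cover the spread between these samples alone, and that spread may be technical. The number of arrays limits the precision.

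Named genes were all 8 members, up to 4 called members of each other list with the largest change (or the one with the smallest p where none was called), and the 3 nearest profiles for EXPA8 and EXPA4. Genes beside members, and the list genes EXPB2, EXPB3, EXPB5, EXLA3, XTH29, RCA, MUTE and OLEO3, fall outside that rule and were named after their values were seen. Alternatives were 3 scalings, 2 pseudocounts, 2 filters, 2 variance models, array weights, a replicate block, each array left out, and a threshold of 0.01. Figures were drawn with matplotlib 3.10.9.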

Additional observations from a re-analysis of the deposited data

How the results depend on the processing

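EXPA4, EXPA8 and EXPA20 kept their direction and their call in all 53 of their values under alternatives. EXPA20 was not tested with the dimmest 50% left out, which left 2 called members in place of 3. Under these alternatives the log2 fold change of EXPA8 lay between 2.31 and 3.59, that of EXPA4 between -2.51 and -2.16 and that of EXPA20 between -1.36 and -0.47, the extremes coming from the pseudocounts of 1 and 64 except for EXPA4, whose value of -2.51 was also reached with centring on the hybridization controls. With 1 array left out they were 3.03 to 3.20, -2.49 to -2.35 and -1.01 to -0.86. The sign of some uncalled members was not fixed, as values near 0 allow. EXPA15 was at -0.0208 with quantile normalization, -0.0359 with median centring and -0.0864 with centring on the hybridization controls, and EXPA18 was at -0.0029 with the last of these. With 1 array left out EXPA9 lay between -0.121 and 0.0486, EXPA15 between -0.172 and 0.158 and EXPA18 between -0.0745 and 0.308, none of them called.

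Over all probe sets, 4569 passed at a threshold of 0.01 (2540 of them higher), against 7096 at 0.05 (4203 higher). Centring on the hybridization controls gave 2155 higher and 2841 lower calls, so that 43.1% of the calls were higher in place of 59.2%, and the median of all probe sets was -0.01 in place of 0.08. With 1 array left out 5594 to 6399 passed, 3222 to 3810 of them higher and 2372 to 2589 lower. A replicate block left 6174 calls, 3 of them alpha-expansins. Same-numbered arrays showed correlations of their deviations from the group means of -0.12, -0.06 and 0.02, with no array correlating best with its own number, and were not treated as pairs. The count of other expansins was 3 to 5 and that of XTH genes 5 to 6 with 1 array left out. No detection calls were used, and 36.8% to 37.9% of probe sets lay below 16 on each array.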
